A study of Canis lupus familiaris with 2 samples.

Results

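The miRNAs described here are the 6 dog miRNAs of the cluster inside CLCN5, a chloride and proton exchanger gene of the X chromosome: cfa-miR-532, cfa-miR-188, cfa-miR-500, cfa-miR-362, cfa-miR-660 and cfa-miR-502, given below without the species prefix. They were taken from the array by name, with any arm suffix, and make up 6 of the 291 dog miRNA probes. Each has 1 probe with 1 spot, named without an arm, and all 6 identifiers were found in the deposited value table. SNP cells, a mammary gland tumour culture of the dog, were sampled in 2 forms with 1 total RNA sample each. The monolayer sample came from adherent cells grown in RPMI-1640 medium with fetal bovine serum. The spheroid sample was started from non-adherent cells that were picked from the growth medium and grown with no added matrix, so the effects of picking these cells and of spheroid growth cannot be told apart. Both were harvested with trypsin and labelled with Cy5, and RNA integrity was 9.8 for the monolayer and 9.7 for the spheroids. With 1 array per culture there is no replicate, so no p-value is given, and having 2 arrays limits the precision of each value. In such bulk RNA, fewer cells that express a miRNA and less of it per cell cannot be told apart.

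CLCN5 encodes ClC-5, which helps to acidify endosomes and is best known from the proximal tubule of the kidney, where its loss causes Dent disease. Intronic miRNAs are commonly cut from the transcript of their host gene or from a transcript of their own, and neighbours in a cluster can be made together yet differ in how much mature miRNA remains. In the RefSeq table of assembly UU_Cfam_GSD_1.0 the genes lie on chromosome X in the order MIR532, MIR188, MIR500, MIR362, MIR660 and MIR502. All 6 fall within the bounds of CLCN5, and they are the 6 genes that the table places wholly inside it. CLCN5 RNA itself was not measured. Members such as miR-362, miR-500 and miR-502 are closely related in sequence, and signal shared between their probes was not tested.

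The 6 spots were dim on both arrays, but they stood further from the blank spots in the spheroids. The mean and SD of the blank spots' raw intensity were taken after leaving out their highest and lowest 5%. A spot was called detected when it exceeded that blank mean by 2 SD. The limit was 89.8 for the monolayer and 79.8 for the spheroids. In the monolayer 5 of the 6 members passed, where 61.9% of all miRNAs did, and in the spheroids all 6 passed, where 69.1% did. A limit of 5 SD left 0 of 6 members in the monolayer (45.7% of all miRNAs) and 6 of 6 in the spheroids (57.4%). None of the 1408 blank spots of the spheroid array was brighter than any member, whereas 1 to 103 blank spots of the monolayer array were, depending on the member. The brightest blank spot was at 86.1 on the spheroid array but at 97.1 on the monolayer array, so this contrast partly reflects the blanks themselves. The share of all miRNAs above every blank spot was not counted. Measured in blank SDs above the blank mean, the members lay at 1.99 to 4.90 in the monolayer, with a median of 3.10, and at 8.16 to 14.9 in the spheroids, with a median of 10.3. The distance grew for 6 of 6 members, as it did for 76.3% of all miRNAs, on an array whose blank SD was 1.55 against 2.37 in the monolayer.

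**Figure D1:**
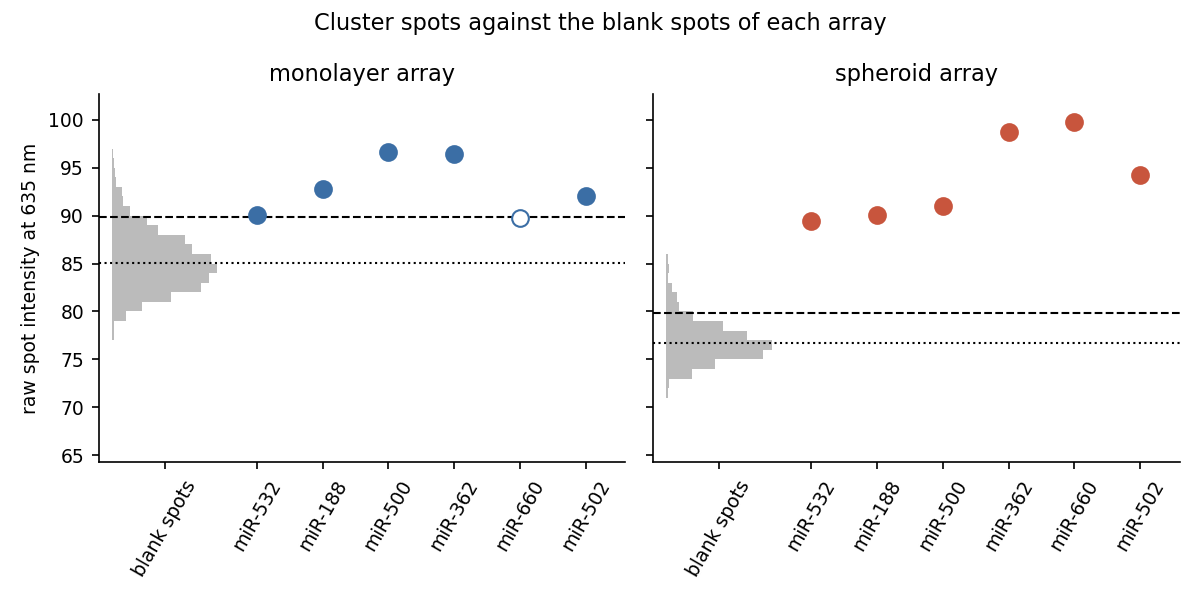
Raw Cy5 spot intensity of each cluster member (points) on the monolayer and the spheroid array, beside the distribution of the 1408 blank spots (grey bars, scaled to their highest bin). The dotted line is the blank mean and the dashed line the detection limit; the open point, miR-660 in the monolayer, lies just under the limit, and all 6 spheroid points lie above every blank spot.

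The median raw intensity of the members was nearly level, at 92.4 in the monolayer against 92.7 in the spheroids, while the blank mean was 85.1 and 76.7. Single members ranged from a change of -5.64 for miR-500 to one of 9.96 for miR-660. The members did not all shift the same way in raw intensity: 3 of the 6 had the higher one in the spheroids, where 33.7% of all miRNAs did. Among the 88 miRNAs detected on neither array, 0 had the higher raw intensity in the spheroids, and their medians were 83.4 and 76.1. Among the 178 miRNAs detected on both arrays, 89 had. The 88 were chosen for lying at or below both detection limits, 89.8 for monolayer spots and 79.8 for spheroid spots. A higher spheroid value among them therefore needed a monolayer spot under 79.8. Their count of 0 was thus largely set by the choice, and their medians were bounded by the same limits.

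miR-532, which in human tumour cells represses the tumour suppressor RUNX3, had a monolayer raw intensity of 90.1 and a spheroid one of 89.4. Its monolayer spot was only 0.283 units above the detection limit, and it was the dimmest of all miRNAs called detected there. Because the blank spots were dimmer on the spheroid array, its height above the blank mean nevertheless went from 5.02 to 12.7. In the authors' deposited values, which subtract the blank mean and scale each array, the monolayer value of miR-532 was 3.06 and the spheroid value 6.30, a ratio of 2.06. Moving both spots by 1 blank SD in opposite directions changed that ratio to 1.23 at the lowest and 4.37 at the highest. This range covers error of the blank spots alone. Since that SD leaves out their highest and lowest 5%, it is narrower than their full spread would give.

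miR-502, a repressor of the histone methyltransferase SETD8 in human cells, had a raw intensity of 92.03 in monolayer RNA and 94.3 in spheroid RNA. Its deposited values were 4.24 and 8.73, a ratio of 2.06, with 1.40 to 3.40 under the same shift of 1 blank SD. The spheroid spot was the higher one on both scales. miR-532 and miR-502 hold the first and the last position of the cluster, and of the 5 members with both deposited values they were the 2 at least 2-fold higher, where 12.9% of the miRNAs detected on both arrays were higher and 14% lower by as much. All 5 members with both deposited values had the higher one in the spheroids, miR-500 only at 7.12 against 7.08, where 50.6% of those miRNAs did.

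miR-362 represses CYLD, an inhibitor of NF-kB signalling, in human cells. Its raw intensity was 96.4 for the monolayer and 98.7 for the spheroids, and its deposited value 6.93 and 10.9, a ratio of 1.58 with a range of 1.21 to 2.13 under that shift. miR-188 drives bone marrow stromal cells of the mouse towards fat rather than bone by repressing HDAC9 and RICTOR. It was at 92.8 and 90.1 in raw intensity and at 4.71 and 6.66 in deposited units, a ratio of 1.41 whose range of 0.955 to 2.27 includes 1. A range that stays above 1 under a shift of 1 blank SD does not exclude that there is no difference. For miR-362 and miR-188 the higher deposited value was that of the spheroids, although the raw spot of miR-188 was the dimmer one there.

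miR-500, which like miR-362 represses CYLD in human cells, had the smallest difference in deposited units. Its raw intensity went from 96.7 to 91.1, a change of -5.64 against -8.35 for the blank mean. Monolayer and spheroid deposited values were 7.08 and 7.12, a ratio of 1.01 with a range of 0.745 to 1.40. It lies between miR-188 and miR-362 in gene order, and its range overlaps those of both.

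miR-660, which represses MDM2, the main antagonist of p53, in human lung cancer cells, had the only empty monolayer value. Its raw intensity of 89.8 lay 0.0362 units under the limit in the monolayer, a gap far smaller than the blank SD of 2.37, and the spheroid spot was at 99.8, where its deposited value was 11.5. It was thus 1 of the 7.90% of miRNAs detected in the spheroids only, a call that the blank spots of its own part of the array turn. The floor for its fold is the deposited value of the dimmest detected monolayer spot, which is that of its neighbour miR-532: against this floor miR-660 was at least 3.74-fold higher in deposited units and at least 1.24-fold higher on the normalized scale. The bound holds only for the blank limit of the whole array: from the measured heights above the blank mean the ratio was 3.99, with a range of 2.48 to 8.59 under a shift of 1 blank SD, and the blank spots of its own block gave 2.73. One of the 8 spots next to that of miR-660 was bright, at 1569 on the monolayer array and 2118 on that of the spheroids, and its part in the result was not tested.

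**Figure D2:**
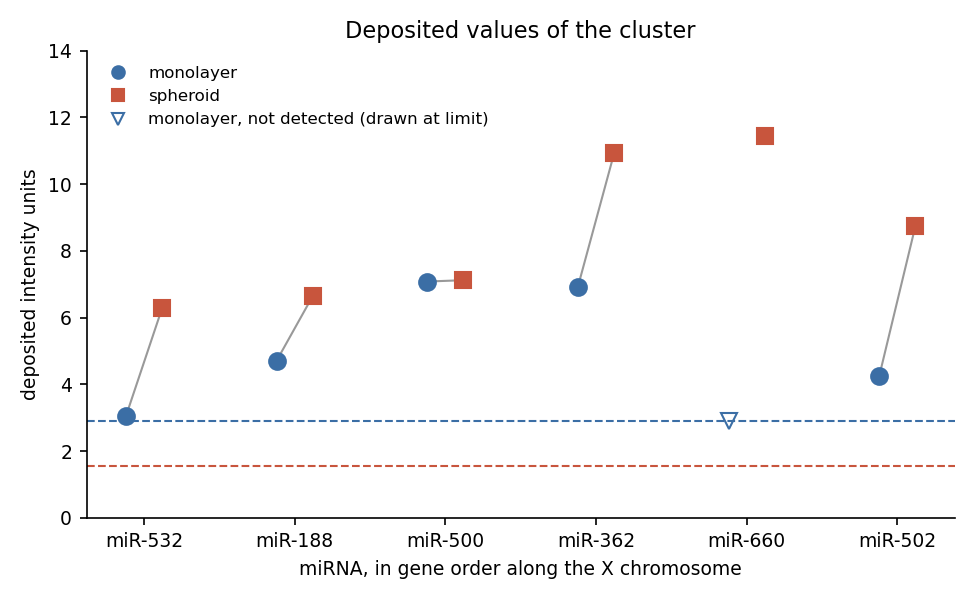
Deposited intensity units of the 6 members, in gene order along the X chromosome, in the monolayer (circles) and the spheroids (squares), with the value at the detection limit of each array as a dashed line (2.89 and 1.54). Spheroid values exceed monolayer values for the 5 members with both, by the least for miR-500 (7.08 and 7.12), and miR-660 has no monolayer value (open triangle at the limit).

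Summed over the detected members, the cluster held 26.03 deposited units in monolayer RNA and 51.2 in spheroid RNA. Over the 5 members with both values the sums were 26.03 and 39.7, a ratio of 1.53. The share of the detected members in the miRNA signal above the blank mean was 0.0985% and 0.177%, so the cluster was a minor part of the signal in both cultures.

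On the main normalized scale, which adds an offset of 50 before log2 and so pulls dim spots together, no member was 2-fold apart. The log2 differences, spheroid minus monolayer, were 0.12 for miR-532, 0.02 for miR-188, -0.04 for miR-500, 0.10 for miR-362, 0.16 for miR-502 and 0.31 for miR-660. All blank spots had an SD of 0.082 in their log2 difference between the arrays. For 6 control probes with 8 spots each it was 0.065, both taken before quantile normalization. In the main values, 0 of the 5 members detected on both arrays differed by more than 2 of these blank SDs. miR-660, just under the limit in the monolayer and so not among the 5, did, at 0.31. By more than 2 blank SDs, 31.5% of the 178 miRNAs detected on both arrays stood higher and 34.3% lower. Without quantile normalization, the scale of the blank SD, miR-502 was at 0.167, just above 2 blank SDs (0.165), and miR-362 was at 0.156. The blank spots themselves had a median of -0.067 on that scale. In the main values the median over the 5 members was 0.10, against -0.05 over the 178, and 4 of the 5 were above 0, against 44.9%. At the 2-fold mark, 2.25% of the 178 were higher and 2.81% lower. These SDs cover the error of a spot and not the variation between cultures.

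The size and even the sign of these differences followed the treatment of the background and the scaling. With the arrays scaled to the 75th percentile of the miRNAs detected on both, a setting chosen after seeing the data, all 6 differences were below 0, from -0.37 for miR-500 to -0.05 for miR-660, and the median of the 178 miRNAs detected on both arrays was at -0.28. With the blank mean subtracted and the spike controls as scale, all 5 members with a value were above 0, from 0.62 for miR-500 to 1.65 for miR-502, and the median of the 178 was at 0.61. There 4 of the 5 were 2-fold or more higher, where 38.8% of the 178 were, and 2 of the 5 were after subtraction of the blank mean followed by quantile normalization, where 12.4% of the 178 were. Set against the median of the 178, the median of the members was higher under each of these settings, by 0.15 in the main values, 0.02 when both arrays were only shifted or left unscaled, and 0.65 in the deposited values. Across the settings miR-500 had the lowest value of the members each time.

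**Figure D3:**
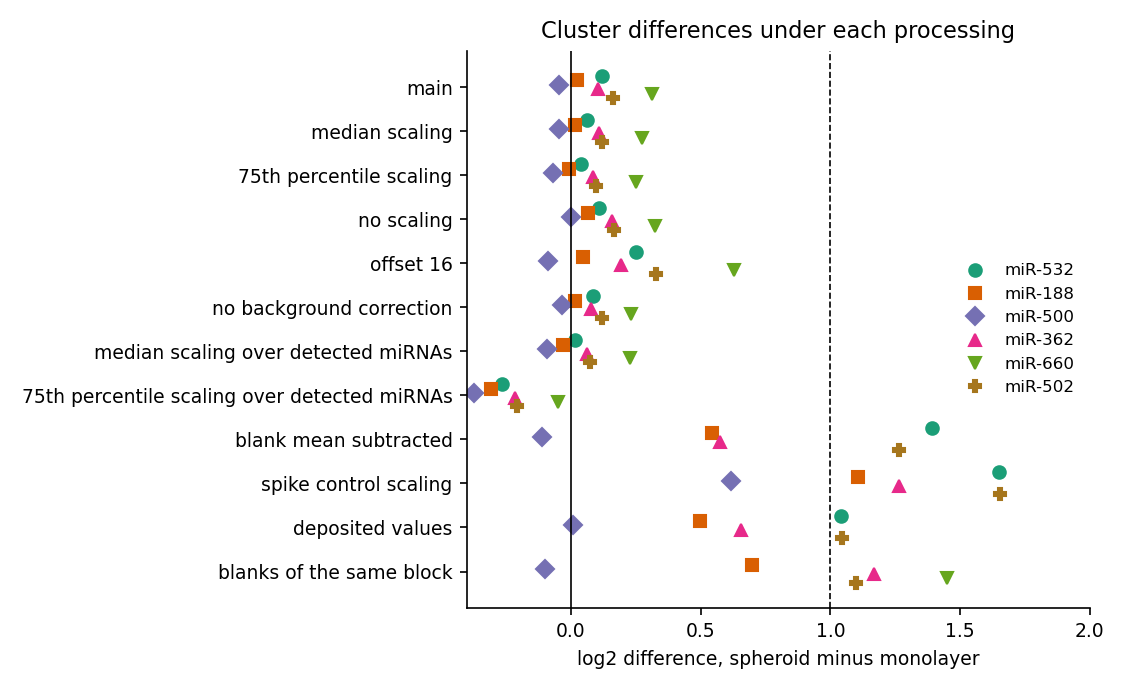
Log2 difference, spheroid minus monolayer, of each member (symbols) under the main processing and each alternative (rows); the dashed line marks 2-fold. Differences stay within -0.37 and 0.63 where an offset or no background correction is used, and spread up to 1.65 where a blank mean is subtracted; miR-660 has no value in the 3 settings based on the blank mean of the whole array, and miR-532 none with the blanks of the same block.

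Ranks of the raw intensity, on which quantile normalization also rests and which need no background correction, gave the same order of change. miR-660 stood 67 of 291 places higher in the spheroids, at rank 115, a gain that 3.09% of all miRNAs reached or passed. miR-502 gained 35 places, miR-532 26, miR-362 19 and miR-188 6, while miR-500 lost 11. In all, 5 of 6 members gained rank, where 46.4% of all miRNAs did, and the median change over all miRNAs was 16 places in size.

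**Figure D4:**
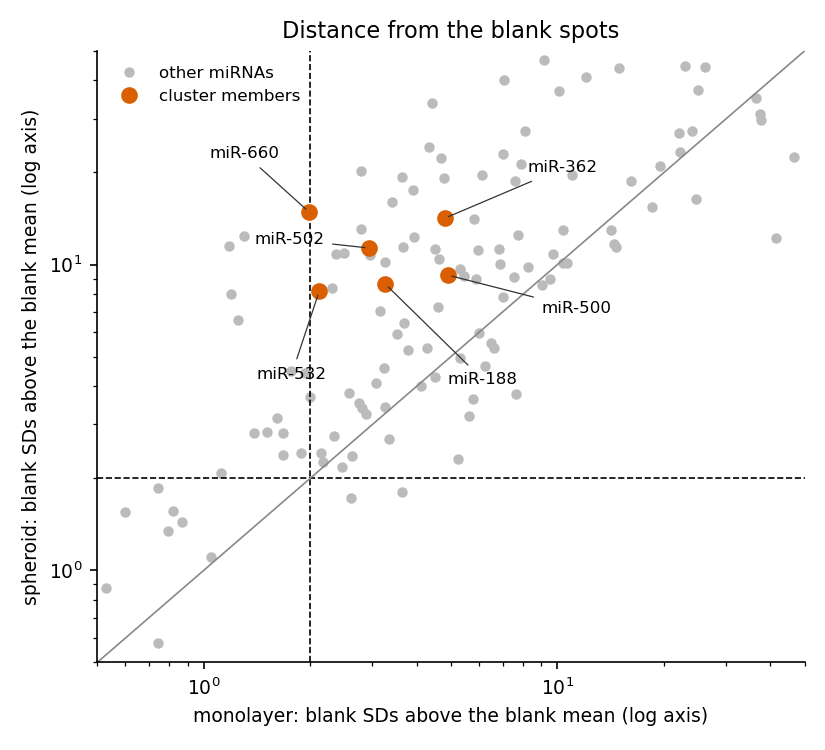
Distance of each miRNA from the blank mean, in blank SDs, on the monolayer array (horizontal, log axis) and the spheroid array (vertical, log axis), for values between 0.5 and 50. Cluster members (orange) lie above the line of equal distance, at 1.99 to 4.90 in the monolayer and 8.16 to 14.9 in the spheroids; 118 other miRNAs are drawn in grey and dashed lines mark 2 SD.

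The level of the blank spots also varied across each array, which bears on the spots nearest the limit. Means of the 44 blank spots of each of the 32 blocks ran from 81.9 to 88.7 in the monolayer and from 75.2 to 79.6 in the spheroids. The block of miR-660 had a low blank mean in the monolayer, 82.9, and against its own limit of 86.8 miR-660 was detected there, with 0 of the 44 blank spots above it. miR-532 went the other way: the limit of its block was 90.14, just above its intensity of 90.11. Its block had a blank mean of 85.2, close to that of the whole array, 85.1. The block limits kept all blank spots, whereas the main limit of 89.8 left out the highest and lowest 5%. With all blank spots of the whole array kept, the limit was 91.3 and miR-532 also fell under it. Then 4 of 6 members passed, where 58.4% of all miRNAs did. Main and block limits both gave 5 of 6 in the monolayer, where 61.9% and 60.8% of all miRNAs passed. The block limits had miR-660 in place of miR-532, but they differ from the main limit in trimming as well as in place.

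With the blank mean of each member's own block subtracted, a calculation added after seeing the data, miR-660 had a value on both arrays and a spheroid to monolayer ratio of 2.73. The ratio was 2.24 for miR-362, 2.14 for miR-502, 1.62 for miR-188 and 0.933 for miR-500. Of these 5 members, 3 were 2-fold or more higher, where 15.8% of the 171 miRNAs above their block's limit on both arrays were. Local blanks thus moved miR-362 from 1.58 to 2.24, since its block had the highest blank mean of the monolayer array, and 1 of the 5 spots next to it was bright, at 1144 against 836 for the spheroids; the part of that spot was not tested.

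The miRNAs most like the members in both normalized levels were sought by Euclidean distance over the 2 arrays. For miR-660 they were miR-374a and miR-421, at distances of 0.064 and 0.066 on the log2 scale. Both lie on the X chromosome, as do 41 of the 291 miRNAs by at least 1 locus, members included. None of the miRNAs nearest to the other members lies on X. miR-374a had deposited values of 4.02 and 10.05, and miR-421 had 9.57 in the spheroids and none in the monolayer. miR-532 was nearest to miR-350 and miR-33b, miR-502 to miR-183 and miR-454, and miR-362 to miR-301b and miR-101, all with differences above 0. miR-188 was nearest to miR-200a and miR-200b, and miR-500 to miR-197 and miR-497, both at slightly negative differences of -0.05 and -0.07. Because these miRNAs were chosen by their levels on both arrays, the choice itself places their differences near that of the member. The signs above are therefore no separate result. The measure rests on 2 arrays, and all of these spots were dim.

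The direction of the other X chromosome miRNAs also followed the scaling. Of 32 such probes, 31 of them placed on X by the RefSeq table (let-7f was not), 17 were detected on both arrays. In the main values 5 of these were above 0 and 12 below, with a median of -0.23, and this median was 0.46 with spike control scaling, 0.08 without scaling, 0.04 after scaling to the median and -0.15 in deposited units. The proliferation-linked cluster of miR-106a and miR-363 had 5 of 5 detected members below 0 in the main values, but 4 of 5 above 0 without scaling. miR-221, a repressor of the cell cycle inhibitor p27, was below 0 in every setting, from -0.92 with the blank mean subtracted to -0.03 with the spike controls. miR-98, a relative of let-7, was above 0 in each, from 0.35 to 1.46. The brighter ones were far from the limit, with deposited values of 641 and 412 for miR-221, the brightest in the monolayer. Others were nearer to the members in brightness and went either way, though miR-361 was brighter than every member on both arrays. Monolayer and spheroid deposited values were 4.02 and 10.05 for miR-374a and 11.7 and 21.0 for miR-361. They were 5.46 and 4.05 for miR-223 and 8.14 and 2.47 for miR-503. Whether the members differ from the other X chromosome miRNAs could not be tested with 1 array per culture.

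The labelled cell type was checked by marker miRNAs. All 10 epithelial markers, among them the miR-200 family, were detected on both arrays, with highest deposited values of 346 (monolayer) and 611 (spheroids). Their median log2 ratio in deposited units, 0.70, was about that of the cluster members, 0.66, while miR-205 went from 170 to 27.6. Of the blood markers 2 of 5 were detected, at up to 5.46, and of the striated muscle markers 5 of 8, at up to 10.1. The fibroblast and smooth muscle list had 2 of 4, led by miR-199 at 58.3 and 41.1, and the neural list 4 of 6, led by miR-138a at 21.6 and 33.9. The endothelial miR-126 was detected on neither array, and the liver marker miR-122 in the spheroids only, at 1.82.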

How the data were processed

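Per the file headers, the deposited scanner tables give a median intensity for each of 3200 spots per array, as scanned, with no correction or normalization. The deposited value table holds linear intensities. Set against the scanner values, it is the intensity minus the blank mean, multiplied by 0.611 (monolayer) or 0.498 (spheroids), within 0.0257 percent; its empty cells are the spots at or below the detection limit. That limit lies 2 SD above the mean of the blank spots after leaving out the highest and lowest 5%, which left 1268 of 1408.

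For the main values, all spots were corrected with limma's normexp (offset 50), log2 transformed and then quantile normalized across 291 miRNA probes. Tools were R 4.3.3 with limma 3.58.1, and numpy 2.4.6, pandas 2.3.3 and matplotlib 3.10.9 in Python 3.11.15. The normalization was tested on simulated data made from the monolayer array, with the same blank mean on both simulated arrays. The size of differences was checked there only for spots far brighter than the members. That test therefore does not cover the size of differences in dim spots or a change in blank level. A count of 2-fold differences means a log2 difference of at least 1 in size. All members are named; the 2 nearest other miRNAs per member and the extremes of the comparison lists were named by rule. The members and lists were chosen with earlier results of these data known. Names matched a RefSeq gene for 290 of 291 miRNAs. Mature sequences, and thus shared seeds, were not used here. No date or slide was used as a batch, since each culture has its own array.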

Additional observations from a re-analysis of the deposited data

How the results depend on the processing

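No paired analysis was possible because each culture has 1 sample. The median log2 difference of the members detected on both arrays was 0.10 in the main values and moved by less than 1 blank SD with median or 75th percentile scaling over all miRNAs, without scaling and without background correction. It was 0.19 with an offset of 16, 0.58 with the blank mean subtracted, 0.66 in the deposited values and 1.27 with spike control scaling. Among settings chosen after seeing the data, it was 0.016 with median scaling and -0.26 with 75th percentile scaling over the miRNAs detected on both arrays, and 1.10 with the blanks of the same block subtracted. Members 2-fold or more apart numbered 0 in the main values, 2 with the blank mean subtracted and in the deposited values, 4 with spike control scaling and 3 with the blanks of the same block. In the monolayer 5 members were detected (61.9% of all miRNAs), but 3 with a limit of 3 SD (55.7%). There were 0 with 5 SD (45.7%) and 2 with the 99th percentile of the blank spots (50.9%). In the spheroids 6 were detected under each of the 5 other limits. Of all miRNAs, 57.4% to 64.6% passed there under the other limits taken over the whole array. Over all miRNAs detected on both arrays, 4 were 2-fold or more higher and 5 lower in the main values, against 13 and 2 without scaling and 69 and 6 with the spike controls. For single members the differences lay between -0.26 and 1.65 for miR-532, -0.31 and 1.11 for miR-188, -0.37 and 0.62 for miR-500, -0.22 and 1.27 for miR-362, -0.05 and 0.63 for miR-660, and -0.21 and 1.65 for miR-502, leaving aside the values by block given above. The range of miR-660 rests on 8 settings, against 11 for each other member. It lacks spike control scaling, which gave the other members their highest values, so its upper end cannot be set beside theirs. The settings that subtract a blank mean carry no offset. Low signal over background limits the monolayer values, and 1 array per culture limits all of them.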

Other observations

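The scanner tables carry a further column, headed as background, that was subtracted nowhere above. How it relates to the spot itself was not tested. Taken as a difference, spot minus that column, blank spots averaged 15.9 with an SD of 3.59 in the monolayer and 12.8 with an SD of 2.57 in the spheroids. On this measure miR-660 hardly differed between the arrays, at 19.8 (monolayer) and 18.8 (spheroids), although 12.9% of the blank spots exceeded it in monolayer RNA and 1.21% in spheroid RNA. miR-362 was at the level of the blank spots on both arrays, at 14.7 and 12.5, with 64.9% and 54.2% of them above it. miR-500, which showed no difference in the deposited values, was at 17.8 and 22.9, and no blank spot exceeded it in the spheroids. miR-532 was at 13.6 and 19.8, miR-502 at 18.3 and 20.2, and miR-188 at 21.4 and 15.8. The members thus stood in another order than in the main values. Each is a value of 1 spot.

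Spots named as having no probe were above the detection limit in 12.2% of 181 cases in the monolayer and 21.0% in the spheroids, against 7.10% and 8.10% of the blank spots. The brightest of them reached 159 and 103, above all 6 members. What these spots hold is not given in the sources used here.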
